A study of Mus musculus with 15 samples.

Results

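Carbonic anhydrases convert carbon dioxide and water into bicarbonate and a proton, and back. The genes described are 7 members of the family, Car1, Car2, Car3, Car4, Car8, Car12 and Car13, out of 16 carbonic anhydrase genes and 19938 gene symbols on the array. Each is measured by a single transcript cluster that carries no other gene symbol. The set was chosen by measured values, since Car1 is far lower in control than in wild-type ileum, so that contrast is described below without a test for any of the 7.

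RNA of epithelial cells isolated from the small intestine of adult mice was hybridised to 15 Affymetrix Mouse Gene 1.0 arrays, 3 in each of 5 groups. The groups are jejunum labelled Gata4 cKO (conditional knockout), jejunum of wild-type CD1 mice, ileum labelled Gata4 cKI (conditional knockin), ileum labelled control, and ileum of wild-type CD1 mice. Gata4 is a zinc finger transcription factor made in jejunal and much less in ileal epithelium, and the design asks how its loss or gain alters regional expression. The Cre driver, the floxed or knocked-in allele, the strain of the altered mice, the genotype of the control, the exact age and the sex are not given in the sources used here. No jejunal control is labelled for the cKO, so wild-type CD1 jejunum stands in, and Gata4 status and mouse stock cannot be told apart there. The labels do not state whether each array of a group is a separate animal. The p-values therefore reflect only how these samples scatter, which may be technical.

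In the intestine, carbonic anhydrases supply bicarbonate and protons to the apical exchangers that absorb sodium chloride and secrete bicarbonate. Car1, Car2, Car3 and Car13 encode cytosolic enzymes. Car4 encodes an enzyme anchored to the outer face of the cell membrane, and Car12 a transmembrane enzyme whose catalytic domain faces outward. Car8 encodes a relative that lacks catalytic activity and is known for binding an inositol trisphosphate receptor in the cerebellum.

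Promoter sequence was at hand for 2 of the 7 members, Car12 and Car4. They are shown because Car12 changed in the jejunum labelled cKO while Car4 did not pass the test there. Both come from RefSeq on GRCm38.p6, on the plus strand, and run 5′ to 3′ from 250 bases before to 50 bases after the transcript start. Car12 is at chr9:66713436-66713735 and Car4 at chr11:84957504-84957803. Capitals mark the letters GATA, the core that GATA factors recognise, searched on both strands.
Car12: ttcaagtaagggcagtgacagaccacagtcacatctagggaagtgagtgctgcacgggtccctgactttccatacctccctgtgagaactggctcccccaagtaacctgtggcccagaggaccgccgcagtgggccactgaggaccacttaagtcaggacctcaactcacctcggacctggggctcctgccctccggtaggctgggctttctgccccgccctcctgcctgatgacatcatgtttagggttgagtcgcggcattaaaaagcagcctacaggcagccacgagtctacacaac
Car4: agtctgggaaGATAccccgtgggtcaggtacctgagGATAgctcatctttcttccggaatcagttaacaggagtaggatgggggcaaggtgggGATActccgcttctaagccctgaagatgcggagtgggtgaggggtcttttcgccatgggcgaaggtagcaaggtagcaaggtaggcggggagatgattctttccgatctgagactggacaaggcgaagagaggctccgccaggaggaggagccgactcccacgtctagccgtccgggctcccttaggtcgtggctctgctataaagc
The Car12 window holds 0 matches of GATA and the Car4 window 3, all on the strand of the gene. Of 32851 promoter windows of 300 bases, 57.9% hold the letters GATA on either strand. The longer forms AGATAA or AGATAG, and likewise TGATAA or TGATAG, were found in 29.8% of the windows and in neither of these.

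Values are log2 expression as deposited. The medians of the arrays lie between 4.82 and 5.0, and precision is limited by having 3 arrays in a group. Genes were kept for testing if at least 1 group mean was above the table's overall median of 4.91, which left 11784. A group mean below 4.91 was not told from background here. No fold is given against it, and a log2 difference from such a group is one of measured values, whose low side may be background. All 10 epithelial markers fixed for the check (Epcam, Vil1 and Cdh1 among them) passed this level. Gata4 was at 9.84 ± 0.11 in jejunum labelled cKO and 9.53 ± 0.13 in wild-type jejunum (SD, n = 3 each), so its signal was not lower in the arrays labelled cKO. The part of the gene that was deleted is not given, so whether the probes of this cluster lie inside it is unknown and the cKO label is not checked by it. Gata4 was at 8.21 ± 0.21 in cKI ileum, 6.82 ± 0.36 in control ileum and 5.60 ± 0.34 in wild-type ileum. Smooth muscle and stromal markers stood apart in 1 array, control ileum replicate 2. Its summed linear signal for these 13 genes was 1784, against 328 to 975 in the other 14 arrays. Other marker lists stood apart elsewhere. Paneth cell genes summed to 19871 in wild-type ileum replicate 2, against 12397 and 13658 in the rest of its group. Skeletal muscle genes were highest in the arrays labelled cKO, as given below.

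The cytosolic genes Car13, Car1, Car3 and Car2 follow each other in that order on chromosome 3, with no other protein-coding gene between them in the GRCm38.p6 annotation. Their levels nevertheless had different patterns over the 5 groups. Car2 was high in wild-type jejunum alone, Car1 in wild-type ileum alone, Car3 in a single array, and Car13 was well above 4.91 in every array. Car1, Car2 and Car3 each passed the level filter through the 1 group where they were highest.

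**Figure D1:**
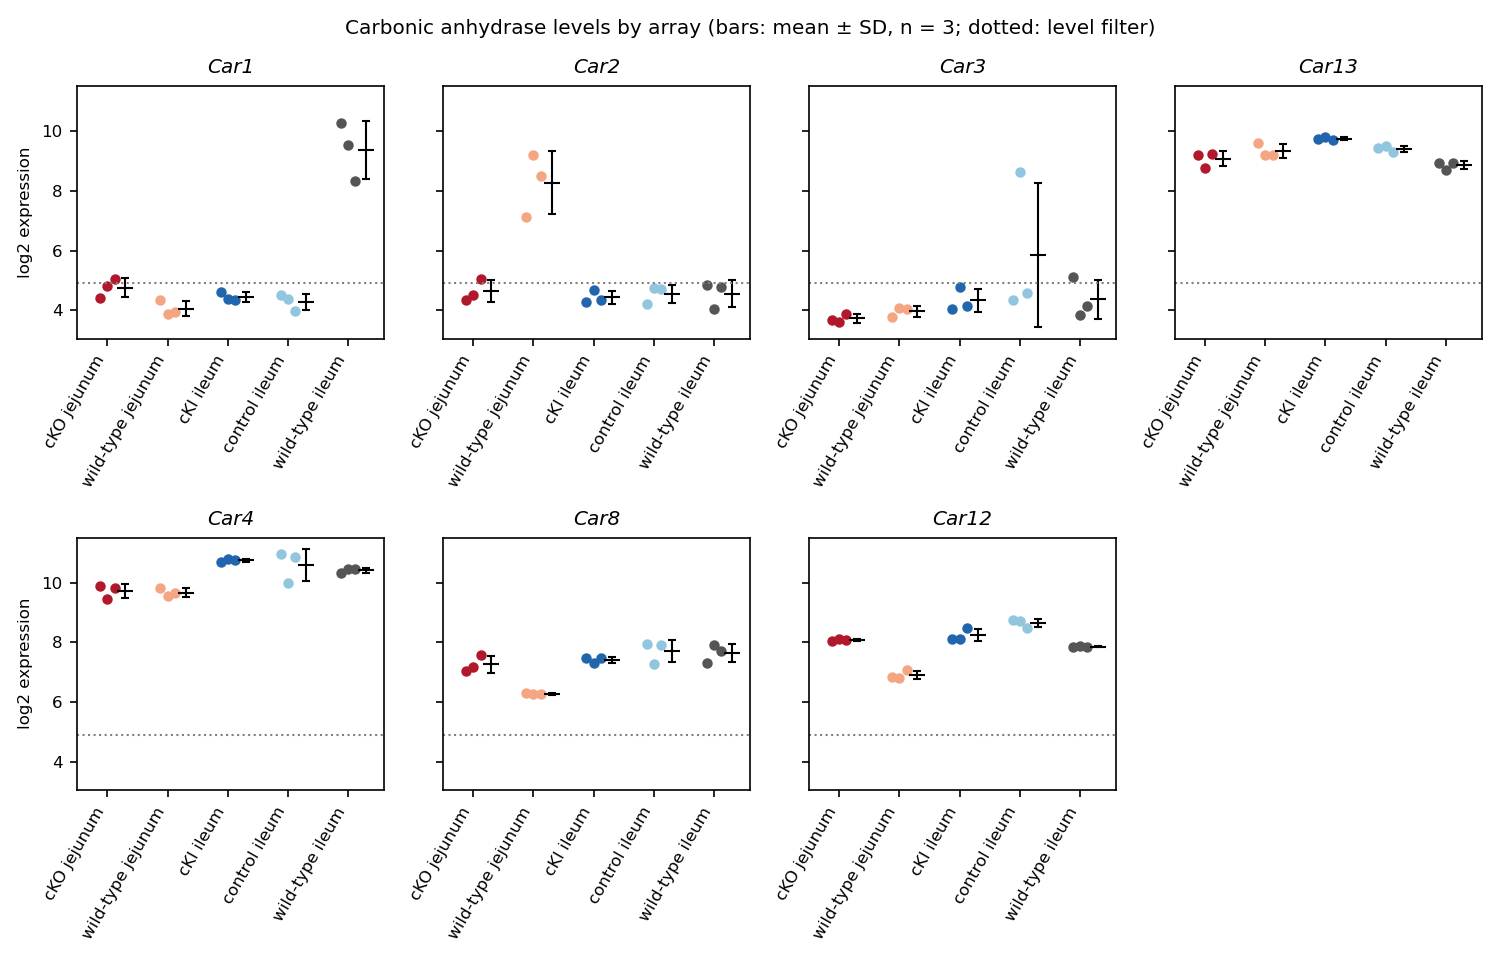
Log2 expression of the 7 carbonic anhydrases (vertical axis) in the 5 groups, with 1 point for each array, a bar for the mean ± SD (n = 3) and a dotted line at the level filter of 4.91. Car2 stands far above the line in the 3 wild-type jejunum arrays and Car1 in the 3 wild-type ileum arrays. Both are just above it, at 5.06, in 1 array labelled cKO. Car3 reaches 8.63 in 1 control ileum array.

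Car2, the high-activity cytosolic isoform, had log2 values of 4.36, 4.50 and 5.06 in jejunum labelled cKO, against 7.13, 9.21 and 8.49 in wild-type jejunum. In the ileum it had 4.29, 4.69 and 4.34 in cKI, 4.21, 4.74 and 4.70 in control, and 4.85, 4.05 and 4.79 in wild-type mice. The 3 wild-type jejunum arrays lay above the other 12, which overlapped one another across the 4 remaining groups. Car2 was higher in wild-type jejunum than in wild-type ileum by 3.71 ± 0.387 on the log2 scale (limma, ± SE, adjusted p = 6.61e-06). It was lower in jejunum labelled cKO than in wild-type jejunum, with a difference of -3.64 ± 0.387 (limma, adjusted p = 2.06e-05). Car2 entered the test through wild-type jejunum, the high group of both comparisons, while the other side of each was below 4.91. With no level filter, so that every gene was tested, the adjusted p-values were 4.66e-06 and 1.5e-05 (limma). These comparisons share the wild-type jejunum arrays, so they are not independent of each other. In cKI against control ileum the difference was -0.11 ± 0.387 (limma, adjusted p = 0.925), with both groups below the filter level. Car2 thus had a group mean above 4.91 in a single group of the 5, with 1 array labelled cKO also above that level at 5.06.

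Car1, a cytosolic isoform known from red blood cells and colonic epithelium, had log2 values of 4.50, 4.39 and 3.98 in control ileum, against 10.26, 9.53 and 8.34 in wild-type ileum. The groups lay far apart, by -5.09 ± 0.34 (control minus wild type, no test). Wild-type ileum replicate 3 was the lowest of its group, and without it the difference was -5.60. All other groups were low as well, with 4.41, 4.81 and 5.06 in jejunum labelled cKO, 4.35, 3.89 and 3.94 in wild-type jejunum, and 4.63, 4.39 and 4.34 in cKI ileum. The low groups followed each other in steps of at most 0.31 and overlapped their neighbours. The differences that share the choosing arrays were -5.31 ± 0.34 in wild-type jejunum against wild-type ileum and 0.16 ± 0.34 in cKI against control ileum, given without a test. In jejunum labelled cKO minus wild-type jejunum, Car1 differed by 0.70 ± 0.34 and did not pass (limma, adjusted p = 0.215). Neither group mean uses the choosing arrays, but the SE and the level filter do, so the test is not free of them. The SE is shared by all groups, with SDs of 0.97 in wild-type ileum, 0.32 in jejunum labelled cKO and 0.25 in wild-type jejunum. Both jejunal group means were below 4.91, so the difference of 0.70 lies between values not told from background.

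Markers of red cells and colon were read beside Car1. Of 10 erythrocyte genes 3 were on the array under a single symbol, and their summed linear signal was 62 to 67 in control ileum and 68 to 74 in wild-type ileum. Alas2 and Epb42 did not pass the level filter. Of 10 colonic genes 9 were on the array and 5 passed, with sums of 4613 to 5492 in control and 3588 to 5395 in wild-type ileum, which overlap. Aqp8, a colonic water channel, was at 4.10, 3.90 and 4.18 in control ileum and 4.38, 4.13 and 3.65 in wild-type ileum, below the filter level in each array. The erythrocyte genes on the array were all near 4.91 or below it, and the colonic sum was carried by Ms4a8a (11.54 ± 0.14 in control and 11.21 ± 0.18 in wild-type ileum) and Tmigd1 (10.55 ± 0.28 and 10.72 ± 0.49). The part of either cell type in the Car1 signal was not tested.

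Car13, a cytosolic isoform found in many tissues, moved little. It averaged 9.08 ± 0.25 in jejunum labelled cKO, 9.34 ± 0.24 in wild-type jejunum, 9.75 ± 0.04 in cKI ileum, 9.41 ± 0.11 in control ileum and 8.86 ± 0.14 in wild-type ileum. Ordered by level, each group overlapped the next except cKI ileum, which lay above control ileum. Car13 was higher in wild-type jejunum than in wild-type ileum by 0.48 ± 0.141 (1.4-fold, limma, adjusted p = 0.0234). That call was lost after quantile normalization (0.0721) and on leaving out either replicate 2 of wild-type ileum (0.101) or replicate 1 of wild-type jejunum (0.125). The difference was 0.34 ± 0.141 in cKI against control ileum (limma, adjusted p = 0.279) and -0.27 ± 0.141 in jejunum labelled cKO against wild-type jejunum (limma, adjusted p = 0.257). In control against wild-type ileum, described without a test, the groups did not overlap and differed by 0.55 ± 0.141.

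Car3, a cytosolic isoform of low activity that is abundant in skeletal muscle and fat, was below 4.91 in all but 2 arrays. It was at 4.36, 8.63 and 4.57 in control ileum and at 5.11, 3.85 and 4.14 in wild-type ileum. In cKI ileum it was at 4.06, 4.79 and 4.13, in jejunum labelled cKO at 3.69, 3.60 and 3.89, and in wild-type jejunum at 3.76, 4.07 and 4.06. Control ileum replicate 2 alone lifted the gene over the filter, and without that array Car3 was not tested. No comparison passed. The adjusted p (limma) was 0.361 in cKI against control ileum. It was 0.888 in jejunum labelled cKO against wild-type jejunum and 0.779 in wild-type jejunum against ileum. These tests exist only through that array, which also widened the SE of 0.771 that they share. They therefore say little about the groups without it. The within-group SD of 1.13 was larger than that of 99.9% of the genes tested.

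The array with high Car3 also had high signal of fat, smooth muscle and plasma cell genes. Its skeletal muscle genes summed to 222, against 226 and 224 in the other control ileum arrays. Fabp4, the fatty acid binding protein of adipocytes, was at 3.12, 5.24 and 3.56 in control ileum and between 2.83 and 3.89 in the other 4 groups. Retn, which encodes the adipocyte hormone resistin, was at 4.66, 6.15 and 4.67 in control ileum. Acta2, smooth muscle actin, was at 6.45, 9.02 and 7.68 there, and Jchain, the joining chain of secreted immunoglobulin, at 7.24, 9.14 and 7.79. In each of these genes replicate 2 was the highest control ileum array. Of the 8 adipocyte genes 7 were on the array and 4 passed the filter. Their summed linear signal was 218 to 422 in cKI, 215 to 444 in control and 214 to 311 in wild-type ileum. It reached 1092 to 2551 in wild-type jejunum, where Pck1, which enterocytes also express, was at 10.53, 11.03 and 9.56. Adipoq and Lep were below the filter level in every array. The part of these cells in the Car3 signal was not tested.

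**Figure D2:**
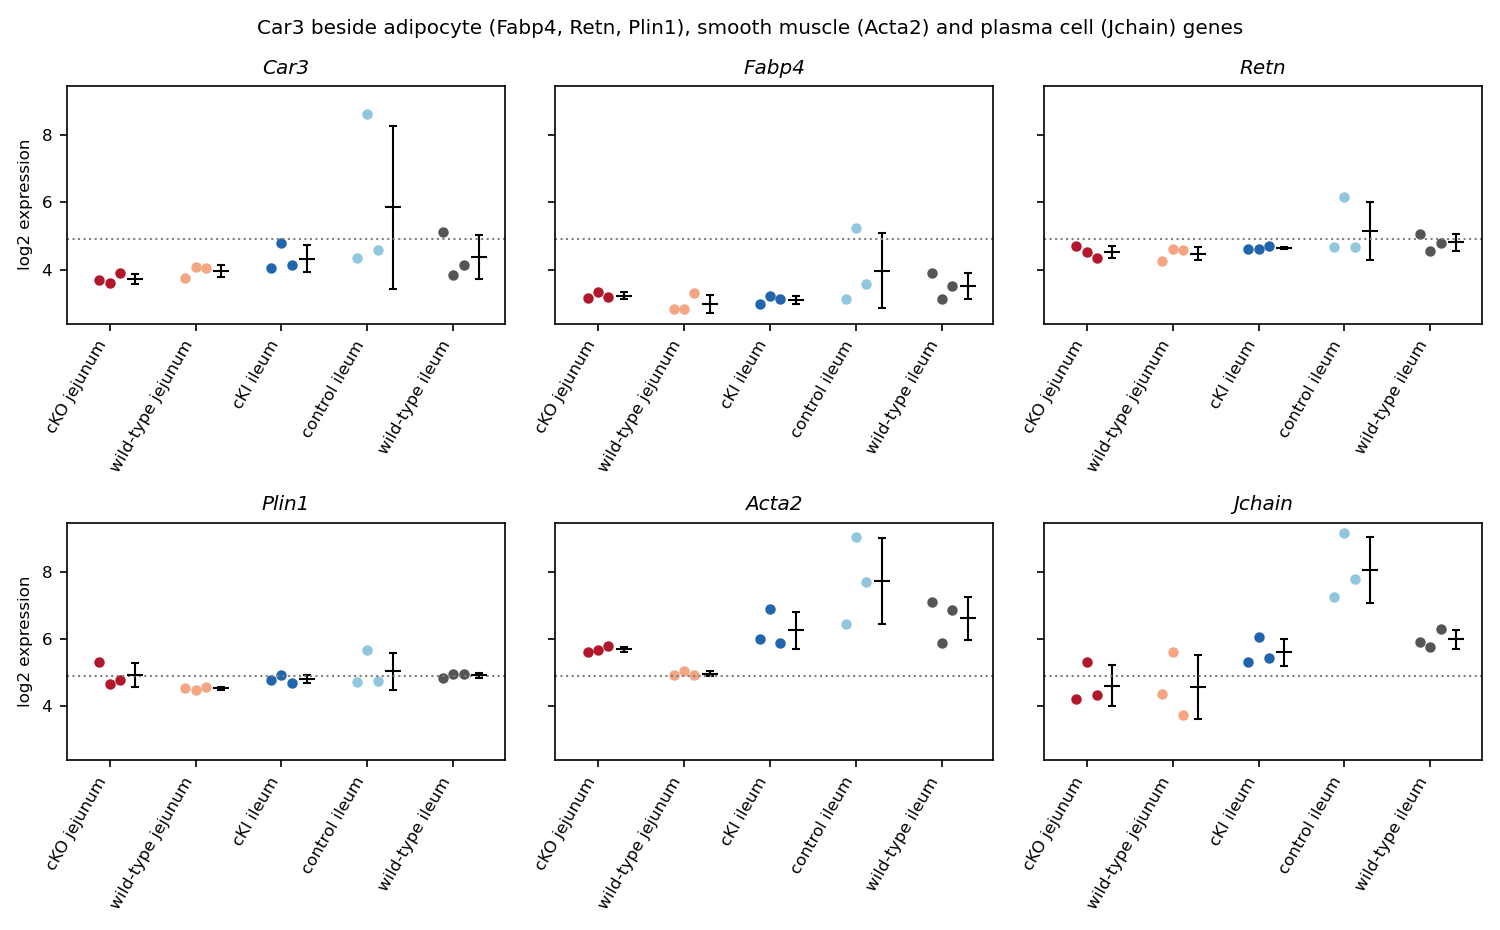
Log2 expression (vertical axis) of Car3, of the adipocyte genes Fabp4, Retn and Plin1, of smooth muscle Acta2 and of plasma cell Jchain in the 5 groups, with 1 point for each array, bars for the mean ± SD (n = 3) and a dotted line at 4.91. Control ileum replicate 2 is the highest point in each panel, at 8.63 for Car3 and 5.24 for Fabp4.

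Of the enzymes that face outward, Car12 changed most clearly with the jejunal label. It had log2 values of 8.06, 8.13 and 8.09 in jejunum labelled cKO, against 6.85, 6.81 and 7.07 in wild-type jejunum. In the ileum it had 8.12, 8.12 and 8.47 in cKI, 8.74, 8.71 and 8.49 in control, and 7.85, 7.89 and 7.84 in wild-type mice. Wild-type jejunum lay below the other 12 arrays, and jejunum labelled cKO lay above wild-type ileum in each array. Car12 was lower in wild-type jejunum than in wild-type ileum, with a difference of -0.95 ± 0.114 (1.93-fold, limma, adjusted p = 2.55e-05). It was higher in jejunum labelled cKO than in wild-type jejunum by 1.18 ± 0.114 (2.27-fold, limma, adjusted p = 8.37e-06).

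In cKI ileum Car12 was lower than in control ileum in each array, and this difference did not pass the test over all genes. It was -0.41 ± 0.114 (limma, adjusted p = 0.119, unadjusted p = 0.00284), and the adjusted p ranged from 0.0276 with array weights to 0.34 without 1 array. Control ileum exceeded wild-type ileum by 0.79 ± 0.114, described without a test. The labels name CD1 for the wild type and no strain for the control, so genotype and stock cannot be told apart in that value.

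Car4, the membrane-anchored isoform of the brush border, was high in all arrays and followed the region. It had 9.88, 9.45 and 9.83 in jejunum labelled cKO and 9.81, 9.54 and 9.66 in wild-type jejunum. In the ileum it had 10.71, 10.78 and 10.76 in cKI, 10.96, 9.99 and 10.86 in control, and 10.33, 10.46 and 10.47 in wild-type mice. Each of the 6 jejunal arrays lay below each of the 9 ileal ones. In wild-type mice the jejunum was lower than the ileum, with a difference of -0.75 ± 0.198 (1.68-fold, limma, adjusted p = 0.0134). The adjusted p was 0.0594 without wild-type jejunum replicate 2. The difference was 0.05 ± 0.198 in jejunum labelled cKO against wild-type jejunum (limma, adjusted p = 0.906) and 0.15 ± 0.198 in cKI against control ileum (limma, adjusted p = 0.754). Without control ileum replicate 2, the low array of its group, the cKI comparison gave -0.16.

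Car8, the relative without catalytic activity, had the same order of groups in the jejunum as Car12. It had 7.05, 7.17 and 7.58 in jejunum labelled cKO, against 6.32, 6.26 and 6.27 in wild-type jejunum. In the ileum it had 7.48, 7.31 and 7.49 in cKI, 7.96, 7.27 and 7.90 in control, and 7.30, 7.92 and 7.71 in wild-type mice. Wild-type jejunum lay below the other 12 arrays, which overlapped from group to group. Car8 was lower in wild-type jejunum than in wild-type ileum, with a difference of -1.36 ± 0.19 (2.57-fold, limma, adjusted p = 9.74e-05). It was higher in jejunum labelled cKO than in wild-type jejunum by 0.99 ± 0.19 (1.98-fold, limma, adjusted p = 0.00275). In cKI against control ileum the difference was -0.28 ± 0.19 (limma, adjusted p = 0.497).

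The summed signal of goblet cell, stromal and colonic genes moved with the jejunal contrasts in which Car8 and Car12 were called, though not each gene did. The summed linear signal of goblet cell genes, 7 of 8 on the array and all passing the filter, was 21647 to 24651 in jejunum labelled cKO, 16080 to 18401 in wild-type jejunum and 25163 to 28666 in wild-type ileum. That of smooth muscle and stromal genes, 11 of 13 passing, was 413 to 471, 328 to 377 and 536 to 740 in the same groups. Colonic genes summed to 3549 to 4615, 1984 to 2409 and 3588 to 5395 there, with Tmigd1 at 10.56 ± 0.28, 6.01 ± 0.47 and 10.72 ± 0.49. Among genes that moved little between the jejunal groups, the goblet cell gene Zg16 was at 12.10 ± 0.19 in cKO and 11.98 ± 0.18 in wild type. The stromal gene Col1a1 was at 5.57 ± 0.24 and 5.56 ± 0.25. In cKI ileum goblet genes summed to 25800 to 27190, against 31542 to 34214 in control ileum, and immune genes to 895 to 1370 against 1605 to 2559. The part of these cells in the Car8 and Car12 values was not tested, and fewer cells of a type cannot be told from less RNA per cell in such samples. Over all arrays the sums were 157 to 221 for endothelium, 224 to 342 for tuft cells, 10476 to 19871 for Paneth cells, 4634 to 7563 for the crypt base and 773 to 2723 for enteroendocrine cells. Skeletal muscle genes summed to 463 to 762 in jejunum labelled cKO and 198 to 286 in the other groups, with Acta1 at 9.18, 8.12 and 8.74 in the arrays labelled cKO, where Car3 was below 4.91. That sum mostly followed Acta1, since Ckm was at 5.14 ± 0.27 in jejunum labelled cKO and 5.21 ± 0.13 in wild-type jejunum, and Tnnt3 at 5.56 ± 0.18 and 5.55 ± 0.15.

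**Figure D3:**
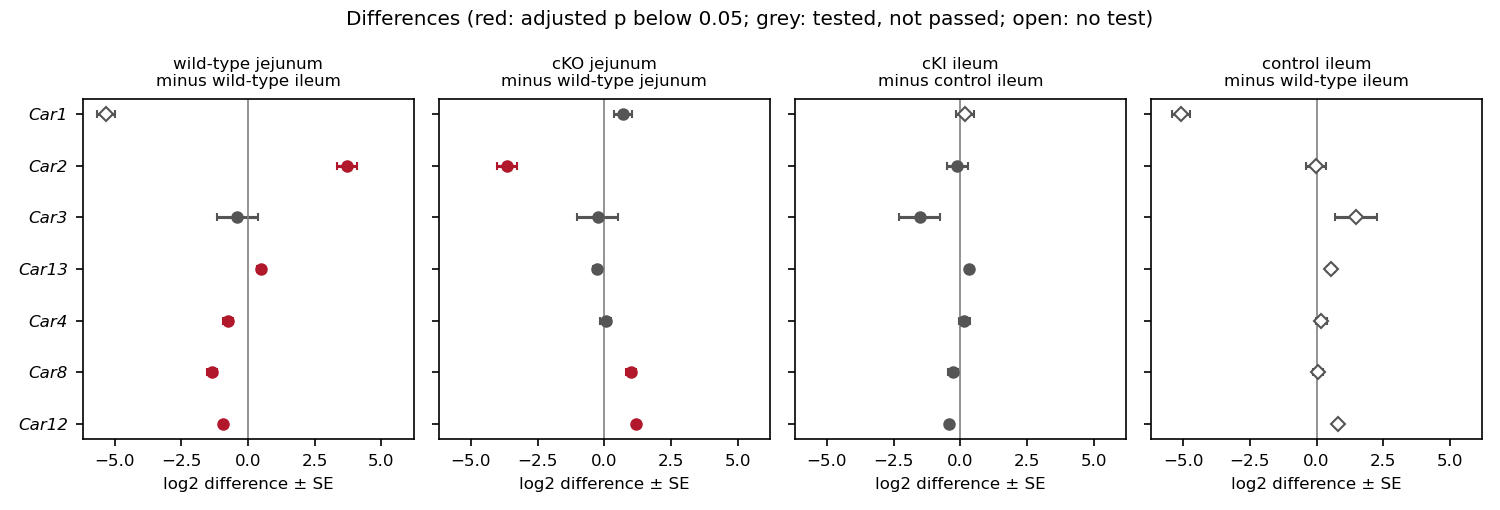
Log2 difference ± SE from limma (horizontal axis) of each carbonic anhydrase in 4 comparisons of 3 arrays against 3, with filled red points for adjusted p below 0.05, filled grey points for tests not passed and open diamonds for values without a test. Car2 is at 3.71 in wild-type jejunum against ileum and -3.64 in jejunum labelled cKO against wild-type jejunum, and Car8 and Car12 lie on the opposite sides.

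Since Car1, Car2 and Car3 passed the filter only through the group where they are high, the following counts are a description. Of the members, 2 of the 6 tested were higher and 3 lower in wild-type jejunum against ileum, with Car3 not passing. Of all genes tested, 13.4% were called higher and 7.91% lower there, a split of 62.8% higher among calls that became 52% after quantile normalization. The members' median difference was -0.58, against 0.00 over all genes tested. In jejunum labelled cKO against wild-type jejunum, 2 of 7 rose (Car8 and Car12), 1 fell (Car2) and 4 did not pass, against 5.17% called higher and 7.65% lower among all genes. The split there was 40.3% higher among calls, or 51.2% after quantile normalization, and the medians were 0.05 for the members and -0.03 for all genes.

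In cKI against control ileum 0 of 6 members passed the limma test. Car12 and Car13 were under an unadjusted p of 0.05 (0.00284 and 0.0293). Of all genes 0.339% were called higher and 0.424% lower there, 0.764% in either direction, so a count of 0 among 6 members is close to the background. In control against wild-type ileum, by which the set was chosen, Car12 and Car13 lay wholly above, Car1 wholly below, and 4 of 7 overlapped. Among all genes tested 29.4% lay wholly above and 15.4% wholly below in that contrast, 44.8% together, and nothing is read from the members' count. Car2, Car4 and Car8 differed there by -0.02 ± 0.387, 0.18 ± 0.198 and 0.06 ± 0.19. The Car4 difference was 0.49 without control ileum replicate 2.

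Non-overlap of the arrays does not depend on the limma fit. In wild-type jejunum against ileum, Car1 left aside because the wild-type ileum arrays chose it, Car2 and Car13 lay wholly above and Car4, Car8 and Car12 wholly below. Of all genes tested 22.2% lay above and 18% below (40.3% in either direction), and Car2 is among the genes tested only through its high group. In jejunum labelled cKO against wild-type jejunum 3 lay above (Car8, Car12 and, at levels below 4.91, Car1) and 1 below (Car2), against 11.3% and 15.8% of all genes (27.2% together). In cKI against control ileum Car13 lay above and Car12 below, against 13.2% and 7.73% of all genes (20.9% together).

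Of the other 9 carbonic anhydrases on the array, Car9 and Car15 passed the level filter. Car9, a transmembrane enzyme known to be induced by hypoxia, had 7.32, 7.94 and 8.70 in jejunum labelled cKO, 8.38, 8.41 and 8.07 in wild-type jejunum and 7.49, 7.60 and 7.51 in wild-type ileum. The arrays labelled cKO spanned more than the whole distance between the wild-type regions. Car9 was higher in wild-type jejunum than in wild-type ileum by 0.75 ± 0.236 (1.69-fold, limma, adjusted p = 0.0329) and differed by -0.30 ± 0.236 in jejunum labelled cKO against wild-type jejunum (0.475). Car15, a membrane-anchored isoform of the mouse, was at 5.57 ± 0.09 in wild-type jejunum and 5.23 ± 0.05 in wild-type ileum (limma, adjusted p = 0.0713). Car5a, Car5b, Car6, Car7, Car10, Car11 and Car14 had no group mean above 4.91 and were not tested.

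Among the bicarbonate and chloride transporters that work with these enzymes, 11 of 21 listed genes were tested. In wild-type jejunum against ileum 4 were higher, 1 was lower and 6 did not pass, with a median of -0.04 against 0.00 over all genes, of which 13.4% were called higher and 7.91% lower. Slc4a5, a sodium bicarbonate cotransporter, was at 7.41, 7.75 and 7.53 in wild-type jejunum and 4.89, 5.13 and 4.31 in wild-type ileum, a difference of 2.79 ± 0.211 (limma, adjusted p = 3.2e-07). The groups did not overlap, and the wild-type ileum mean of 4.78 was below 4.91. Slc26a6 and Slc26a3, apical exchangers of chloride for bicarbonate, were higher by 1.03 ± 0.205 (limma, adjusted p = 0.00192) and 0.80 ± 0.13 (0.000381). Clcn2, a chloride channel, was higher by 0.61 ± 0.16 (0.0126). The 1 lower gene, named after its value was seen, was the sulfate transporter Slc26a2, with a difference of -0.96 ± 0.262 (0.0159).

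In jejunum labelled cKO against wild-type jejunum, 1 of the 11 was higher, 2 were lower and 8 did not pass (median -0.07, against -0.03 over all genes, of which 5.17% were called higher and 7.65% lower). Slc4a5 had 6.43, 6.0 and 6.61 in jejunum labelled cKO, against 7.41, 7.75 and 7.53 in wild-type jejunum. It was lower without overlap, with a difference of -1.22 ± 0.211 (limma, adjusted p = 0.0013). Slc26a3 differed by -0.47 ± 0.13 (0.0267) and Slc26a2 by 1.17 ± 0.262 (0.00788). Slc26a6 differed by -0.32 ± 0.205 and did not pass (0.373). In cKI against control ileum 0 of 11 passed, with Slc4a5 at 0.33 ± 0.211 (limma, adjusted p = 0.476).

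Of 22 proton transport genes 14 were tested, and 2 were higher, 2 lower and 10 not passed in wild-type jejunum against ileum (median 0.18, against 0.00 over all genes). The share higher is close to the 13.4% of all genes called higher there, beside 7.91% lower. Slc9a3, the apical sodium-proton exchanger, was higher by 1.91 ± 0.285 (limma, adjusted p = 0.000174), and Slc15a1, the proton-coupled peptide transporter, by 1.36 ± 0.433 (0.0357). Slc9a3r2, a scaffold protein of Slc9a3, and Hvcn1, a voltage-gated proton channel, differed by -0.51 ± 0.137 (0.0154) and -0.73 ± 0.247 (0.0471). Hvcn1 was tested only through wild-type ileum, at 4.96 ± 0.21, its single group above 4.91 and the high side of this comparison. Wild-type jejunum was at 4.22 ± 0.21, not told from background. The Hvcn1 call and its place in the count of genes lower are therefore a description. In jejunum labelled cKO against wild-type jejunum and in cKI against control ileum 0 of 14 passed, with medians of 0.06 and -0.04. Slc9a3 was at 9.39, 9.04 and 9.76 in jejunum labelled cKO, against 10.04, 10.14 and 10.29 in wild-type jejunum, without overlap (-0.76 ± 0.285, limma, adjusted p = 0.0998).

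**Figure D4:**
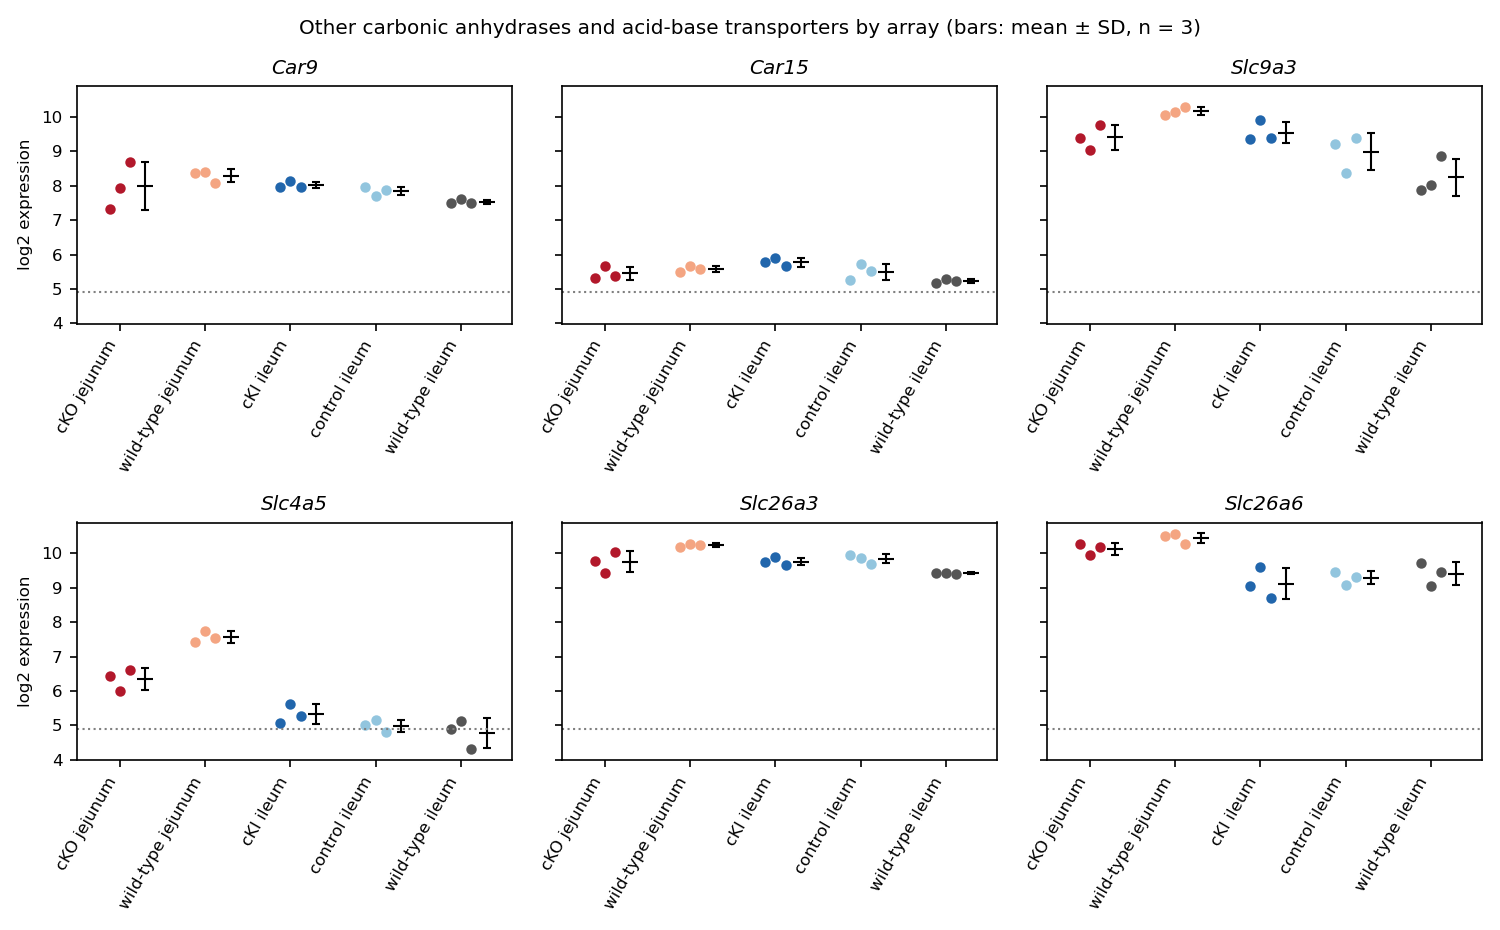
Log2 expression (vertical axis) of the carbonic anhydrases Car9 and Car15 and of the transporters Slc9a3, Slc4a5, Slc26a3 and Slc26a6 in the 5 groups, with 1 point for each array, bars for the mean ± SD (n = 3) and a dotted line at 4.91. Slc4a5 is highest in wild-type jejunum (7.56), lower in jejunum labelled cKO (6.35) and near the line in the ileal groups.

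The genes whose levels over the 15 arrays were most like those of each member are given by Pearson correlation, as a description without a test. The 15 points fall into 5 groups, so the values mostly follow the group means. For Car2 they were Cyp1a1 (0.972), Ros1 (0.96) and Ncoa7 (0.946). Cyp1a1, a xenobiotic-metabolising cytochrome, was at 5.42, 6.89 and 6.31 in wild-type jejunum and at 4.11 or less in the other arrays, and like Car2 it had wild-type jejunum replicate 1 as the lowest of its group. For Car1 they were Mir196a-1 (0.948), Itpr3 (0.919) and Hoxb6 (0.917). Hoxb6, a homeobox gene of the posterior axis, was at 5.27, 5.05 and 5.65 in control ileum and 6.52, 6.72 and 6.16 in wild-type ileum. Mir196a-1, which lies in a Hox cluster, was at 3.45, 3.74 and 3.86 in control and 5.99, 6.16 and 5.91 in wild-type ileum, its single group mean above 4.91. Itpr3 was at 8.99, 8.72 and 8.92 in control and 9.43, 9.47 and 9.44 in wild-type ileum. These genes were picked by likeness to Car1, which is high in wild-type ileum alone. Their lower values in control ileum follow from that choice.

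For Car12 the closest genes were Gm1123 (0.977), Cd164 (0.952) and the epithelial keratin Krt18 (0.951), and for Car8 Pdxdc1 (0.972), Stambpl1 (0.968) and Ddah1 (0.951). Ddah1, which degrades methylarginines, was at 8.55, 8.40 and 8.77 in jejunum labelled cKO, 5.67, 5.48 and 4.81 in wild-type jejunum and 9.48, 9.57 and 9.67 in wild-type ileum. For Car4 they were Smpdl3a (0.928), Bend7 (0.921) and Pla2g2f (0.911), and for Car13 Pam16 (0.943), Cers2 (0.926) and Tor1a (0.917). Those of Car3 were an immunoglobulin kappa variable gene (0.975), the adipocyte gene Retn (0.95) and the macrophage gene C1qa (0.894). Without control ileum replicate 2 these values were 0.821, 0.665 and 0.456.

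Among the members themselves the Pearson correlations over the 15 arrays ranged from -0.865 for Car2 with Car8 to 0.818 for Car8 with Car12. Car2 with Car12 gave -0.854. The 4 neighbours on chromosome 3 had correlations from -0.634 (Car1 with Car13) to 0.221 (Car3 with Car13), and Car1 with Car2 gave -0.313. The within-group SD was 0.125 for Car12, smaller than in all but 20.2% of the genes tested, and 0.562 for Car2, larger than in 98.6% of them.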

How the data were processed

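Expression in 15 samples of mouse small intestinal epithelium was measured on Affymetrix Mouse Gene 1.0 arrays. The deposited log2 values were made by the authors in Partek, per the submitters' processing notes; the sources used here give no background correction, normalization or summarization. Their range shows a log2 scale. Names came from the platform annotation, where 21789 of 35556 transcript clusters carry 1 symbol, 1621 several and 12146 none. Of several clusters of a symbol the one with the highest mean was used.

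All 15 arrays entered 1 fit with a mean for each group, by limma 3.58.1 in R 4.3.3 (eBayes, 10 residual degrees of freedom, two-sided, Benjamini-Hochberg over 11784 genes, threshold 0.05). No p is given for Car1 in comparisons of wild-type or control ileum. Those arrays still enter the shared spread behind its p in jejunum labelled cKO against wild-type jejunum. The steps were tested on simulated data. The members, gene lists and rules were chosen with earlier results of these data known. Genes named are all carbonic anhydrases, Gata4, the markers quoted and the 3 genes most correlated with each member. Of each transporter list up to 4 called genes per comparison are named, by smallest p. Beyond that rule, Slc26a2 is named in wild-type jejunum against ileum. Slc4a5, Slc26a6 and Slc9a3, called in that comparison, are also given in others where they were not called.

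To check for pairing, deviations from the group mean were correlated between arrays with the same replicate number. The 3 values were 0.334, 0.216 and 0.161 between the wild-type regions. Between cKI and control ileum they were 0.128, 0.177 and 0.258, and between cKO and wild-type jejunum 0.185, -0.0247 and -0.0732. Arrays of unlike number were not correlated, so these values do not settle whether the numbers pair arrays. Pla2g2a, of the Paneth cell list, was at 8.31, 12.86 and 8.73 in wild-type ileum and 7.73, 12.37 and 7.46 in wild-type jejunum. It was thus high in replicate 2 of both wild-type regions, and at 11.53, 11.88 and 12.59 in jejunum labelled cKO. Whether the replicates 2 come from 1 animal was not tested. If they do, the wild-type arrays of the 2 regions are not independent. The main fit holds no pairing term. The replicate block below joined wild-type ileum, wild-type jejunum and cKO arrays by number, and cKI with control ileum. Alternatives were quantile normalization, median centring, other level filters, the 6 arrays alone, a variance trend, array weights, cluster means, a replicate block and each array left out.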

Additional observations from a re-analysis of the deposited data

How the results depend on the processing

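The calls of Car8 and Car12 in both jejunal comparisons held under each of the 15 alternatives run for each comparison, with differences of -1.53 to -1.22 and -1.02 to -0.89 in wild-type jejunum against ileum and of 0.83 to 1.09 and 1.13 to 1.26 in jejunum labelled cKO against wild-type jejunum. Car2, whose low groups were not told from background, ranged from 3.25 to 4.28 and from -4.21 to -3.17. With the replicate number as a block, no member's call changed. The counts of members called stayed at 2 higher and 3 lower in wild-type jejunum against ileum and 0 in cKI against control ileum. They stayed at 2 higher and 1 lower in jejunum labelled cKO, whose arrays that block joined with wild-type arrays by number alone. In wild-type jejunum against ileum the count of members higher was 1 after quantile normalization, where Car13 was lost, and 1 to 2 when arrays were left out. In cKI against control ileum the count lower was 1 with array weights (Car12, -0.40, adjusted p = 0.0276). Car1 in control against wild-type ileum ranged from -5.60 to -4.64 when arrays were left out. The sign of Car4, not called, turned in cKI against control ileum with array weights (-0.00) and without control ileum replicate 2 (-0.16; -0.16 to 0.33 when arrays were left out), and in jejunum labelled cKO without wild-type jejunum replicate 2 (-0.01) or cKO replicates 1 (-0.03) or 3 (-0.00), within -0.03 to 0.19. Car3 gave no value without control ileum replicate 2, since it then missed the level filter. Over all genes, calls in cKI against control ileum were 40 higher and 50 lower, against 388 and 378 with array weights, 98 and 137 with the replicate block, 19 and 33 without a level filter and 7 and 12 in the 6 arrays alone. They were 37 and 155, 16 and 24, and 6 and 33 without control replicates 1, 2 and 3, and 7 and 13, 21 and 56, and 16 and 22 without cKI replicates 1, 2 and 3. In jejunum labelled cKO against wild-type jejunum 609 were higher and 901 lower, against 413 and 566 in the 6 arrays alone, 445 and 545 without wild-type jejunum replicate 1 and 448 and 551 without its replicate 2. In wild-type jejunum against ileum 932 were lower, against 1651 with array weights. The cause was not tested in any of these. With 3 arrays a group, small differences such as those of Car13 lie near the limit of what can be called, and levels below 4.91 were not told from background.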
